A study of Mus musculus with 18 samples.

Results

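The Hox gene clusters carry microRNAs (miRNAs) of the miR-10, miR-196 and miR-615 families, and 7 of their mature forms were followed here by name: mmu-miR-10a-5p, mmu-miR-10a-3p, mmu-miR-10b-5p, mmu-miR-10b-3p, mmu-miR-196a-5p, mmu-miR-196b-5p and mmu-miR-615-3p, written without the species prefix from here on. They are 7 of the 1359 mature mouse miRNAs listed over all tables, and each is listed in all of them. The study sequenced small RNAs from 18 libraries. All come from cells labelled as of the Eu-myc strain, in which a Myc transgene is driven by an immunoglobulin enhancer active in B cells. The first set holds 9 libraries of mouse embryonic fibroblasts (MEF), 3 for each of 3 states of the miR-17~92 cluster. In fl/fl cells the cluster is floxed and intact, in d/d cells it is deleted, and in OV cells it is overexpressed. The second holds 6 libraries of MEF that all lack miR-17~92 (d/d), 3 given an Empty plasmid and 3 with overexpressed miR-290~295. The third holds 3 libraries of B cells from spleen, 1 each of OV, fl/fl and d/d. The labels do not say whether replicates come from separate cultures or embryos, or whether a group is 1 clone, so p-values measure only the spread between these libraries, which may be technical.

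Hox genes lie in clusters in the order in which they are used along the body axis, and cells keep much of that positional pattern in culture. The miRNAs between them are made with the neighbouring Hox genes, and several Hox messenger RNAs are themselves targets: miR-196 directs cleavage of Hoxb8 mRNA in mouse, and miR-10b represses HOXD10 in human cells. A miRNA recognises its targets mainly through its seed, the bases near its 5′ end, so miRNAs that share a seed can share targets.

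The mature sequences are shown because the members fall into pairs that share a seed and differ by a single base, which matters both for what they can target and for how their reads are told apart. They are from RefSeq (GRCm38.p6) and are written 5′ to 3′, with the seed, bases 2 to 8, in capitals.
miR-10a-5p: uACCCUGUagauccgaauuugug
miR-10b-5p: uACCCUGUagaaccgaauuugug
miR-196a-5p: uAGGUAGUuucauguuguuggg
miR-196b-5p: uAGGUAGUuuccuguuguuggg
miR-615-3p: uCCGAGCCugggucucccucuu
miR-10a-3p: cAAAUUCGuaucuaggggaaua
miR-10b-3p: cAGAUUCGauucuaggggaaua

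Counting positions from 1 at the 5′ end, miR-10a-5p and miR-10b-5p differ by U12A, and miR-196a-5p and miR-196b-5p by A12C, both outside the seed. The opposite arms miR-10a-3p and miR-10b-3p differ by A3G, U9A and A10U, so their seeds differ. The seed of miR-615-3p is shared with none of the other members. How the submitters assigned reads that fit both members of a pair is not stated in the sources, and the part of such reads in the values was not tested.

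The precursors of miR-196a are shown because the 5′ arm is made from a pair of loci with identical mature sequence, while their 3′ arms differ. RefSeq hairpins (GRCm38.p6) follow, with both mature arms in capitals.
Mir196a-1: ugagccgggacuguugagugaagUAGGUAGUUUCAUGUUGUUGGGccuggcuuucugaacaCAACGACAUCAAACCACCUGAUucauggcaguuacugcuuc
Mir196a-2: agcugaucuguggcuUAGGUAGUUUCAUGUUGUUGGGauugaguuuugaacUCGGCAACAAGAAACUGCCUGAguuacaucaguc

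In GRCm38, Mir196a-1 (chr11:96265164-96265265, plus strand) lies between Hoxb13 and Hoxb9. Mir10a (chr11:96317165-96317274, plus strand) lies in the same cluster, between Hoxb5 and Hoxb4. Mir10b (chr2:74726070-74726137, plus strand) lies in introns annotated to Hoxd3 and Hoxd4. Mir196a-2 (chr15:102973350-102973434, plus strand) lies between Hoxc10 and Hoxc9, within an intron of a long Hoxc5 transcript, and the mature arms of Mir615 (chr15:103014926-103014990, plus strand) also fall in a Hoxc5 intron. Mir196b (chr6:52230081-52230165, minus strand) lies between Hoxa7 and Hoxa10 and overlaps an exon of at least 1 Hoxa9 transcript.

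The deposited values, called normalized counts in what follows, are the reads of each mature form after scaling by a size factor for each library, and the reads behind them could be recovered as whole numbers. The libraries held 17191892 to 24920911 reads in the first MEF set, 43164128 to 58911475 in the second and 10203586 to 10612256 in B cells. Summed reads of the miR-17~92 cluster followed the labels: 20914 to 23081 reads per 1000000 listed miRNA reads (RPM) in OV MEF, 3381 to 5115 in fl/fl MEF and 74.6 to 99.7 in d/d MEF. In the second set miR-290~295 stood at 16192 to 18644 RPM with its plasmid and at 30.0 to 41.9 with the Empty plasmid. The 6 fibroblast markers, such as miR-143-3p and miR-199a-3p, summed to between 39467 and 86467 RPM in MEF libraries and to 155 to 1018 in B cells. The blood markers of B cells (6 of 7 listed, miR-144-3p at 0 and, in fl/fl, also miR-223-3p) summed to 10383 to 18024. Epithelial (692 to 1465), neural (135 to 1661, miR-124-3p at 0), endothelial (336 to 538) and liver (49.4 to 58.0) sums were higher in every B-cell library than in any MEF library. The muscle sum (2.35 to 21.9) was lower. In bulk samples such as these, fewer cells of a type and less of an RNA per cell cannot be told apart.

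Together the 7 members took 1.17% to 1.94% of all listed miRNA reads in the first MEF set, 1.91% to 3.08% in the second and 1.32% to 2.08% in B cells. A single member, miR-10a-5p, accounted for most of this: 80.4% to 86.9% of the members' reads in the first set, 87.0% to 93.0% in the second and 98.2% to 99.3% in B cells. It ranked between 9 and 21 among all miRNAs in every library. The next member in MEF was miR-615-3p, at rank 43 to 74, followed by miR-196a-5p at rank 76 to 137, whereas in B cells miR-10a-3p (rank 137 to 166) came next in fl/fl and OV, and miR-10b-5p (rank 118 to 162) in d/d. The share of miR-10b-3p was near nothing: it had at most 5 reads in any MEF library and at most 12 in a B-cell library.

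Levels across the 3 sets are given as RPM, because the tables were normalized separately and no test was made between them. The miR-17~92 cluster itself took 125575 RPM in fl/fl B cells, 362982 in OV B cells and 3784 in d/d B cells, so the remaining miRNAs shared very different remainders of those libraries. With that limit, miR-10a-5p reached similar levels in both cell types, 9404 to 27194 RPM over the 15 MEF libraries and 12925 to 20676 over the 3 B-cell libraries. The miR-196 and miR-615 members were higher in every MEF library than in every B-cell library. The ranges came closest for miR-196b-5p, at 34.7 to 264 RPM in MEF against 0.784 to 11.9 in B cells. The level of miR-615-3p was 903 to 2506 RPM in MEF against 3.14 to 5.20 in B cells, and that of miR-196a-5p was 184 to 968 in MEF against 15.7 to 25.5 in B cells.

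**Figure D1:**
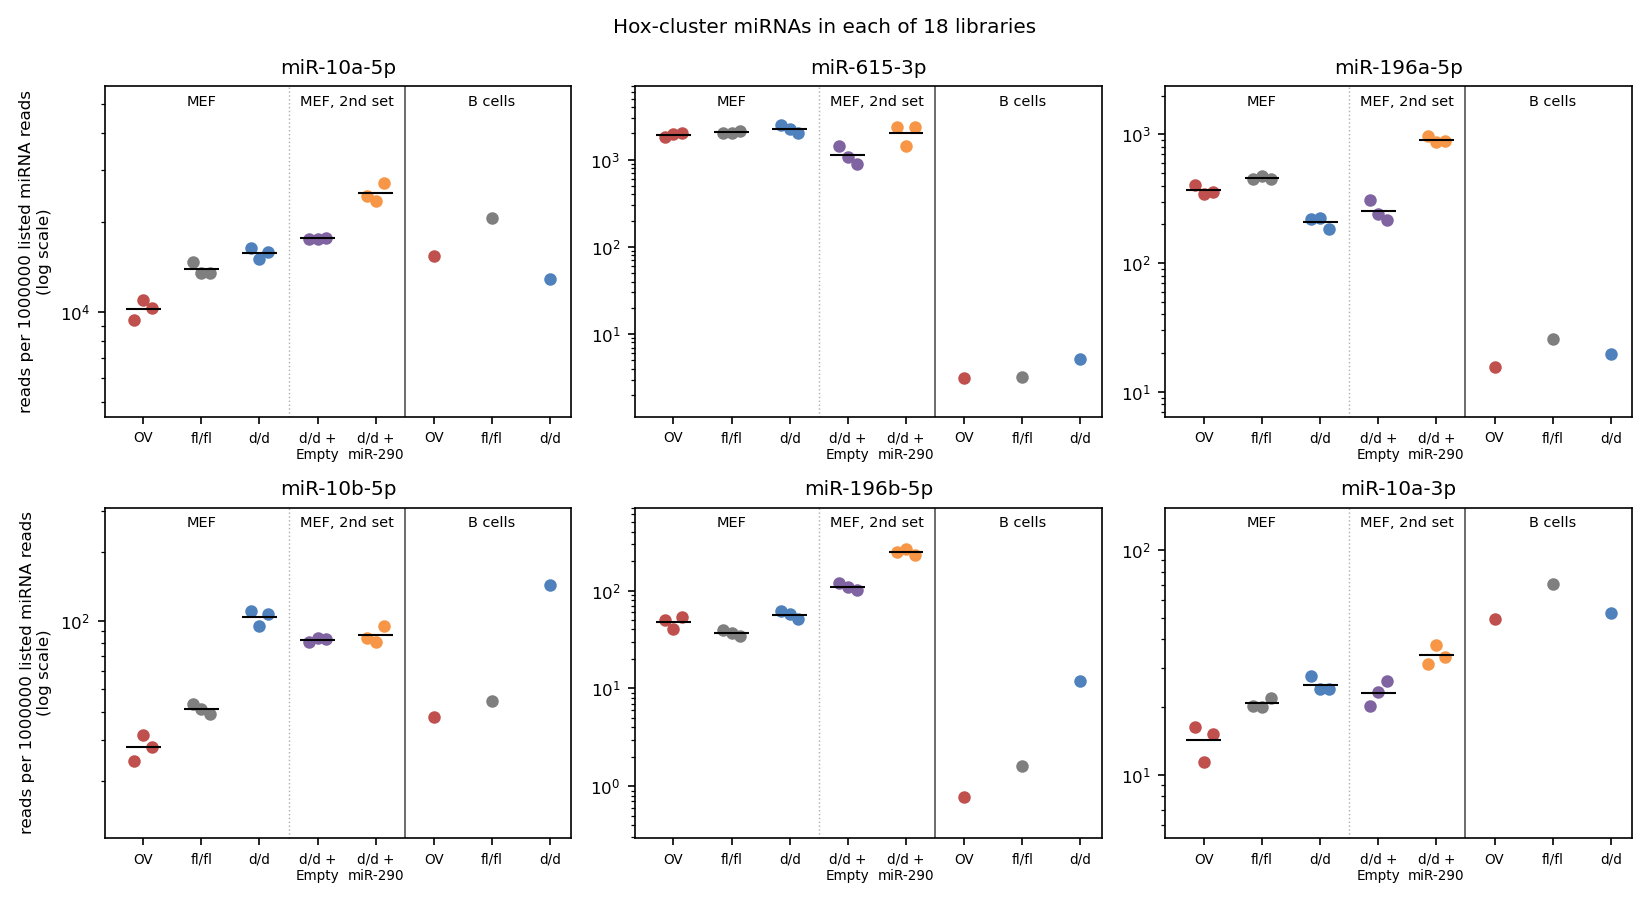
RPM listed miRNA reads (log scale) of 6 members in each of the 18 libraries, by group; each point is 1 library and the black line is the mean of 3 libraries. miR-10a-5p lies in the same range in MEF and B cells, while miR-615-3p and miR-196a-5p are far lower in all 3 B-cell libraries than in all 15 MEF libraries.

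Ordered by mean level, miR-10a-5p ran from miR-290~295 MEF (25152 ± 1825 RPM, SD, n = 3) through Empty (17669 ± 73.6), d/d (15826 ± 669) and fl/fl (13935 ± 693) to OV (10238 ± 801), and no neighbouring groups overlapped. miR-196a-5p ran from miR-290~295 (908 ± 52.9) through fl/fl (459 ± 11.9), OV (367 ± 31.3) and Empty (255 ± 46.9) to d/d (210 ± 21.8), where only the last pair overlapped. Both of that pair lack miR-17~92, as does the highest group. miR-196b-5p had another order, from miR-290~295 (249 ± 16.2) through Empty (110 ± 8.42), d/d (56.8 ± 5.48) and OV (47.8 ± 6.63) to fl/fl (37.1 ± 2.34), with d/d and OV overlapping. miR-10b-5p was highest in d/d (104 ± 8.12), followed by miR-290~295 (86.5 ± 7.09) and Empty (82.6 ± 2.10), which overlapped, and then by fl/fl (41.1 ± 2.09) and OV (28.0 ± 3.54). For miR-615-3p the ranges of d/d, fl/fl, miR-290~295 and OV overlapped from each group to the next, and Empty (1134 ± 275) lay below OV (1932 ± 111). The Empty and miR-290~295 libraries form a set of their own, so gaps across the sets cannot be told apart from a difference of set or plasmid. d/d and Empty share their miR-17~92 state, yet stood at 56.8 and 110 RPM for miR-196b-5p and at 2268 and 1134 for miR-615-3p.

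Differences within a set were tested with limma on log2(normalized count + 1) over all miRNAs with a mean of at least 10, at a Benjamini-Hochberg adjusted p of 0.05. Of the 7 members, 6 passed that minimum in each set and miR-10b-3p did not. The OV and d/d comparisons with fl/fl share the fl/fl libraries, and the comparison of OV with d/d shares both of the others' libraries, so their values are given side by side and are not independent of each other.

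The comparison of d/d with fl/fl MEF asks how these miRNAs stand when miR-17~92 is missing. miR-10b-5p rose, miR-196b-5p rose by less, and miR-196a-5p fell, while miR-10a-5p, miR-10a-3p and miR-615-3p did not pass the test. These 3 calls stand against a background in which 58.3% of the 662 miRNAs tested were called, 30.7% higher and 27.6% lower, so the number of members called is not out of the ordinary. The groups did not overlap for 4 of the 6 members tested, against 68% of all miRNAs.

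Summed markers of other cell types also stood apart between these libraries. The 2 endothelial markers summed to 55.6 to 57.6 RPM in d/d and 104 to 115 in fl/fl, the muscle markers (2 of 3 listed, miR-133a-3p at 0) to 1083 to 1189 and 1775 to 1884, and the epithelial markers (6 of 7 listed, miR-141-3p at 0 and, in d/d, also miR-429-3p) to 3.57 to 5.89 and 13.9 to 14.7. The blood markers (5 of 7 listed, miR-144-3p and miR-223-3p at 0 and, in d/d, also miR-451a) summed to 219 to 333 and 405 to 436, and the 2 neural markers to 3.91 to 4.11 and 4.997 to 6.52. All 5 sums were lower in every d/d library, whereas the fibroblast and liver sums overlapped, and the part of these gaps in the members' values was not tested.

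miR-10b-5p, from the Hoxd cluster, stood at 1852, 1719 and 2036 normalized counts in the d/d libraries against 824, 821 and 762 in fl/fl. All d/d libraries lay well above all fl/fl libraries, with no overlap. The difference was 2.32-fold (log2 1.22 ± 0.15 SE, limma adjusted p = 6.39e-05). Its near twin miR-10a-5p, from the Hoxb cluster, stood at 275861, 273693 and 302498 in d/d and at 280558, 271901 and 263422 in fl/fl. The groups overlapped, and the log2 difference was 0.06 ± 0.10 (limma adjusted p = 0.629).

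miR-196a-5p stood at 3685, 4062 and 3507 normalized counts in d/d and at 8648, 9477 and 8795 in fl/fl. Every d/d library lay below every fl/fl library, a 2.39-fold lower level (limma adjusted p = 8.01e-06). miR-196b-5p, which shares its seed and comes from the Hoxa cluster, moved the other way: 1041, 1034 and 973 in d/d against 750, 745 and 677 in fl/fl. Its groups did not overlap either, and its log2 difference was 0.49 ± 0.13 (limma adjusted p = 0.00794). So, without spike-in scaling, a seed-sharing pair held 1 member that fell and 1 that rose in the same libraries. With the spike-in scaling described below, the rise of miR-196b-5p did not pass the test (log2 0.06, limma adjusted p = 0.724), while miR-196a-5p stayed lower.

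miR-615-3p, from the Hoxc cluster, was level, at 42028, 40842 and 38797 in d/d and 38599, 40429 and 41077 in fl/fl (log2 0.02 ± 0.10, limma adjusted p = 0.884). miR-10a-3p, the minor arm of Mir10a, stood at 459, 434 and 459 in d/d and 387, 401 and 430 in fl/fl, a gap between the groups that did not pass the test (log2 0.15 ± 0.15, limma adjusted p = 0.392). miR-10b-3p, the minor arm of Mir10b, had 4, 5 and 3 reads in the d/d libraries and 0 in each fl/fl library, where the limit that a count of 0 allows is 3 reads. It was too low for the main test; with no minimum, limma gave an adjusted p of 0.00128, and no fold is given because the d/d libraries lie so near that limit.

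The submitters also deposited a table scaled by spike-in RNAs added to the samples. In it the median of all miRNAs was −0.39 in d/d against fl/fl, instead of 0.02, and −0.46 with miR-290~295 against Empty, instead of 0.02. In OV it was 0.07 against fl/fl, instead of −0.07, and 0.60 against d/d, instead of 0.02. The split of calls moved with it: 203 miRNAs were called higher and 183 lower in d/d against fl/fl without spike-in scaling, and 147 and 283 with it. For OV it went from 103 and 104 to 112 and 44 against fl/fl, and from 177 and 170 to 333 and 120 against d/d, and for miR-290~295 against Empty from 140 and 187 to 56 and 331. Since a scaling moves all miRNAs of a library together, the members' differences relative to the median were close in the 2 tables: in d/d against fl/fl 1.20 and 1.18 for miR-10b-5p, −1.27 and −1.30 for miR-196a-5p and 0.47 and 0.45 for miR-196b-5p. On the spike-in scale itself miR-10b-5p stayed higher (log2 0.79) and miR-196a-5p lower (log2 −1.69), both past the threshold, while miR-196b-5p fell short of it (log2 0.06, limma adjusted p = 0.724). There miR-10a-5p turned to −0.37 (limma adjusted p = 0.0343) and miR-615-3p to −0.41 (limma adjusted p = 0.0108), both close to the median miRNA of that table.

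**Figure D2:**
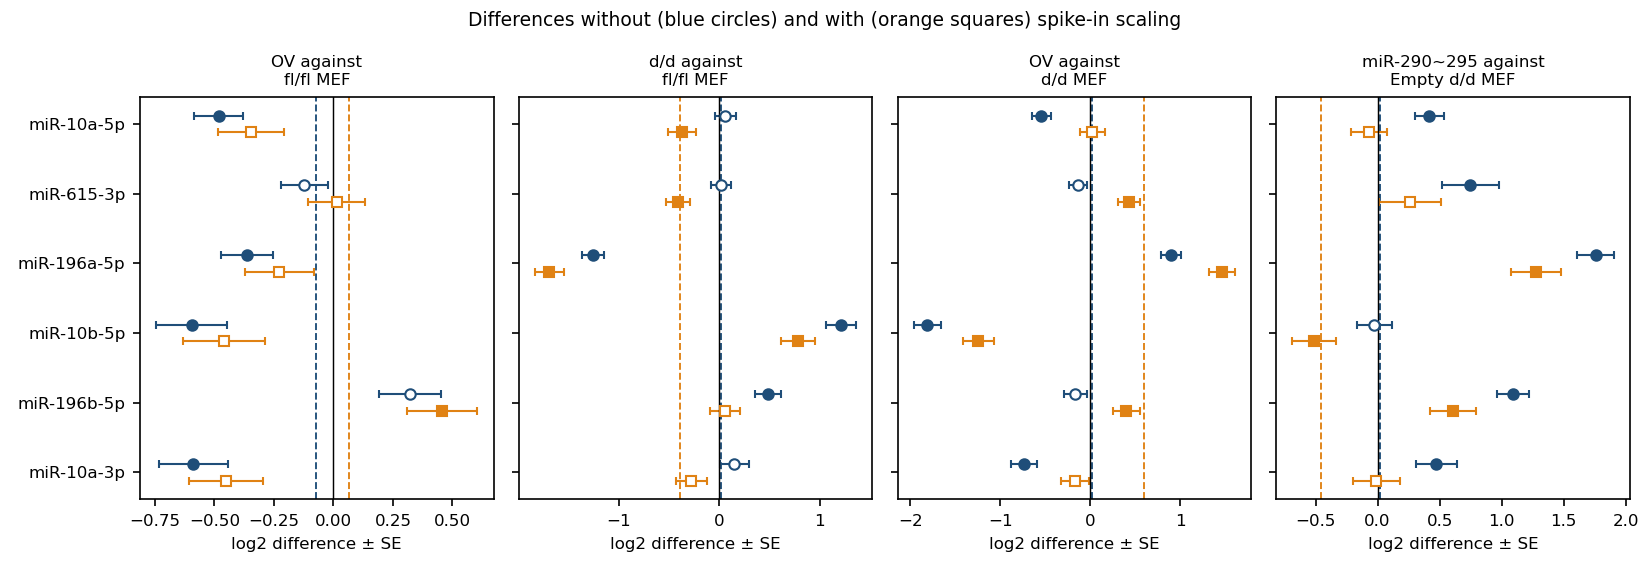
log2 differences (± SE, limma) of 6 members in the 4 MEF comparisons, without spike-in scaling (blue circles) and with it (orange squares); filled symbols have an adjusted p under 0.05 and dashed lines mark the median of all miRNAs tested. In d/d against fl/fl, miR-10b-5p lies right of both medians and miR-196a-5p left of both, and in miR-290~295 against Empty, miR-196a-5p and miR-196b-5p lie right of both.

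OV against fl/fl MEF asks the same with miR-17~92 raised. Here 4 members fell and none rose, by small amounts: miR-10a-5p, miR-10a-3p, miR-10b-5p and miR-196a-5p. Of all 662 miRNAs tested, 31.3% were called, 15.7% lower and 15.6% higher. The groups did not overlap for 5 of the 6 members tested, against 48.6% of all miRNAs. None of the 4 calls held on the spike-in scale, where the largest of their adjusted p-values was 0.251. Relative to the median of all miRNAs, the differences without and with spike-in scaling were −0.409 and −0.412 for miR-10a-5p, −0.515 and −0.519 for miR-10a-3p, −0.523 and −0.526 for miR-10b-5p, and −0.291 and −0.294 for miR-196a-5p. Of the marker sums, epithelium (8.15 to 10.6 RPM) and muscle (1315 to 1596 RPM) lay below their fl/fl ranges, liver (26.9 to 41.4 RPM) lay above its range of 23.2 to 24.2, and the fibroblast, blood, endothelial and neural sums overlapped; their part in the members' values was not tested.

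miR-10a-5p stood at 172694, 219485 and 194688 normalized counts in OV against 280558, 271901 and 263422 in fl/fl. All OV libraries were lower, by 1.396-fold (log2 −0.48 ± 0.10, limma adjusted p = 0.00622), with −0.35 and an adjusted p of 0.0845 on the spike-in scale. Its minor arm miR-10a-3p stood at 301, 228 and 286 against 387, 401 and 430. That is 1.503-fold lower (log2 −0.59 ± 0.15, limma adjusted p = 0.0137), with an adjusted p of 0.0561 on the spike-in scale and of 0.0594 without the fl/fl library numbered 5 in the table.

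miR-10b-5p stood at 448, 628 and 529 normalized counts in OV and, as above, between 762 and 824 in fl/fl. OV was lower in all libraries, by 1.51-fold (log2 −0.60 ± 0.15, limma adjusted p = 0.0139, and 0.0731 on the spike-in scale). miR-196a-5p stood at 7375, 6813 and 6735 in OV, below the fl/fl range of 8648 to 9477. The 1.29-fold difference (log2 −0.36 ± 0.11, limma adjusted p = 0.0288) was lost when any 1 fl/fl library was left out or when the OV library numbered 2 was, with adjusted p-values of 0.0561 to 0.109, and in edgeR on the recovered reads (adjusted p = 0.0548).

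The remaining members did not pass the test. miR-196b-5p was higher in all OV libraries, at 913, 806 and 1005 against 677 to 750 in fl/fl, with a log2 difference of 0.32 ± 0.13 (limma adjusted p = 0.0814) that passed on the spike-in scale (0.46, adjusted p = 0.0448), in DESeq2 (adjusted p = 0.0414) and without the OV library numbered 2 (adjusted p = 0.0462). miR-615-3p stood at 33147, 39501 and 37978, overlapping the fl/fl range of 38599 to 41077 (log2 −0.12 ± 0.10, limma adjusted p = 0.361). miR-10b-3p had 0 reads in all 3 OV libraries.

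In OV against d/d MEF, which reuses those libraries, miR-196a-5p was higher and miR-10b-5p, miR-10a-5p and miR-10a-3p were lower. The background in this comparison was 52.4% of miRNAs called, 26.7% higher and 25.7% lower, and the groups did not overlap for 4 of the 6 members tested, against 58.2% of all. miR-10b-5p differed most among the members, 3.51-fold (log2 −1.81 ± 0.15, limma adjusted p = 2.59e-06), and remained lower on the spike-in scale (log2 −1.25). miR-196a-5p was 1.86-fold higher in OV (log2 0.90 ± 0.11, limma adjusted p = 4.15e-05). miR-10a-5p fell by 0.54 on the log2 scale (limma adjusted p = 0.00108), but on the spike-in scale its difference was 0.02 (adjusted p = 0.898). miR-10a-3p, with a log2 difference of −0.74 (limma adjusted p = 0.00141), also lost its call there (adjusted p = 0.339), while miR-196b-5p (log2 0.40, adjusted p = 0.0319) and miR-615-3p (log2 0.43, adjusted p = 0.00892) gained one, below the median of 0.60 in that table.

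In the second MEF set, all of whose cells lack miR-17~92, the question is what an introduced miR-290~295 cluster does; several of its miRNAs have a seed much like that of miR-17 and miR-20a. With it, both miR-196 forms rose, miR-10a-5p, miR-10a-3p and miR-615-3p rose by less, and miR-10b-5p did not pass the test. The background was 38.9% of 840 miRNAs called, 16.7% higher and 22.3% lower, and 5 of the 7 members were called higher. The groups did not overlap for 4 of the 6 members tested, against 49.6% of all miRNAs. Of the 5 calls, those of miR-196a-5p and miR-196b-5p held in every alternative tried. The others did not, so that 2 to 4 members were called in the alternatives that leave out a library.

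miR-196a-5p stood at 45836, 40711 and 42351 normalized counts with miR-290~295 and at 14907, 12523 and 10953 with the Empty plasmid. The lowest library with the cluster was far above the highest without it, and the rise was 3.38-fold (log2 1.76 ± 0.15, limma adjusted p = 4.12e-05). miR-196b-5p stood at 11820, 12389 and 11073 against 5755, 5650 and 5147. These groups were also fully apart, with a 2.13-fold rise (log2 1.09 ± 0.13, limma adjusted p = 0.000271). On the spike-in scale the rises were 1.27 and 0.61 on the log2 scale.

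miR-10a-5p stood at 1163898, 1110226 and 1298304 with miR-290~295 against 857077, 918401 and 896982 with the Empty plasmid. The groups did not overlap, and the rise was 1.33-fold (log2 0.42 ± 0.12, limma adjusted p = 0.0199), but the spike-in scale gave −0.07 (adjusted p = 0.744). The call was also lost without the Empty library 2 (adjusted p = 0.0653), the miR-290~295 library 1 (0.0508) or the miR-290~295 library 3 (0.0813). Its arm miR-10a-3p stood at 1480, 1770 and 1602 against 984, 1212 and 1315, a 1.39-fold rise at the edge of the threshold (limma adjusted p = 0.0498) that was also absent on the spike-in scale (log2 −0.01). That call was lost when any 1 library but the Empty library 3 was left out, with adjusted p-values from 0.0792 to 0.131, and in edgeR (adjusted p = 0.0698).

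miR-615-3p was the most uneven member: 110817, 66991 and 112289 with miR-290~295 against 69798, 55308 and 45627 with the Empty plasmid. The groups overlapped, since the miR-290~295 library 2 lay below the Empty library 1. The 1.68-fold difference (log2 0.75 ± 0.23, limma adjusted p = 0.0298) fell to 0.26 on the spike-in scale (adjusted p = 0.421). It also lost its call without the Empty library 2 (adjusted p = 0.0815) or 3 (0.0726), or the miR-290~295 library 1 (0.116) or 3 (0.121).

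miR-10b-5p stood at 3992, 3788 and 4509 with miR-290~295 and at 3895, 4393 and 4216 with the Empty plasmid, fully mixed (log2 −0.03 ± 0.14, limma adjusted p = 0.895). On the spike-in scale it was lower (log2 −0.51, adjusted p = 0.0290), beside a median of −0.46 for all miRNAs. In the same libraries the fibroblast marker sum was 39467 to 46068 RPM with miR-290~295 and 62912 to 86467 with the Empty plasmid. The muscle sum was 950 to 1109 against 1236 to 1721, and the endothelial sum 63.3 to 71.5 against 76.2 to 85.1. The part of these gaps in the members' values was not tested.

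A ratio of members within a library does not move with any scaling of that library, and it sets the members of a seed-sharing pair side by side. The members of each pair differ by a single base, and the part of misassigned reads in these ratios was not tested. miR-10b-5p amounted to 0.295% ± 0.006 of miR-10a-5p in fl/fl MEF (SD, n = 3), 0.273% ± 0.013 in OV and 0.657% ± 0.025 in d/d. It amounted to 0.468% ± 0.012 with the Empty plasmid and 0.344% ± 0.003 with miR-290~295. The groups were fully apart in each of the 4 comparisons, and the ratio of the pair differed 2.23-fold between d/d and fl/fl.

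miR-196b-5p amounted to 8.08% ± 0.523 of miR-196a-5p in fl/fl MEF (SD, n = 3), 13.0% ± 1.65 in OV and 27.1% ± 1.498 in d/d. It amounted to 43.6% ± 4.405 with the Empty plasmid and 27.5% ± 2.58 with miR-290~295. The groups were again fully apart in all 4 comparisons, by 3.36-fold between d/d and fl/fl. Both d/d and OV therefore stood above fl/fl in this ratio. With 3 libraries against 3, a two-sided exact permutation test cannot go below p = 0.1. Each of these 8 differences reached that value (adjusted p = 0.2 over the 24 ratio tests made). How often ratios of other miRNA pairs were fully apart was not computed, so nothing particular to these pairs is read from that. Of single miRNAs, 48.6% (OV against fl/fl) to 68% (d/d against fl/fl) did not overlap between the groups.

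**Figure D3:**
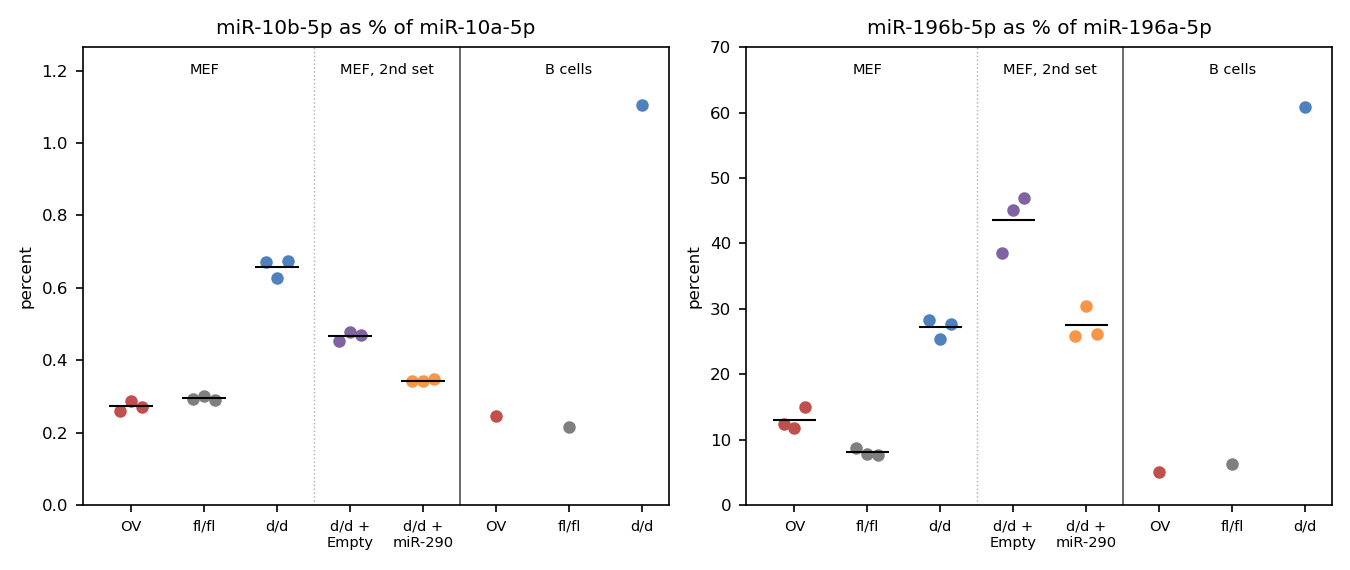
miR-10b-5p as a percentage of miR-10a-5p (left) and miR-196b-5p as a percentage of miR-196a-5p (right) in each library, from 0; points are libraries and black lines means of 3. Among the first 9 MEF libraries the 3 d/d libraries are highest in both panels, at 0.628% to 0.673% and 25.4% to 28.3%.

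The other arms of the precursors were compared in the same way. miR-196a-1-3p, made from the Hoxb locus only, stood at 1184, 1247 and 1179 normalized counts in d/d against 2666, 2739 and 2641 in fl/fl (log2 −1.16 ± 0.12, limma adjusted p = 2.04e-05). With miR-290~295 it stood at 12553, 9411 and 10803 against 4140, 3000 and 2532 (log2 1.78 ± 0.20, limma adjusted p = 0.000210). Both differences were near those of miR-196a-5p, and within libraries miR-196a-1-3p was 23.1% to 34.1% of miR-196a-5p over all 15 MEF libraries. The groups overlapped in the ratio of these arms, which was added after seeing the data, in all 4 comparisons. The exact test cannot go below 0.1 here, so it does not show that the ratio was the same.

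The 3′ arm of the Hoxc locus, miR-196a-2-3p, is listed only in the second set, with 0 to 6 reads a library. Its mature sequence has no seed in common with miR-196a-1-3p, so their reads are told apart. How much of miR-196a-5p came from each locus cannot be told apart from these values, because arms of a precursor can be kept in very unequal amounts. miR-196b-3p had at most 12 reads in any MEF library.

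**Figure D4:**
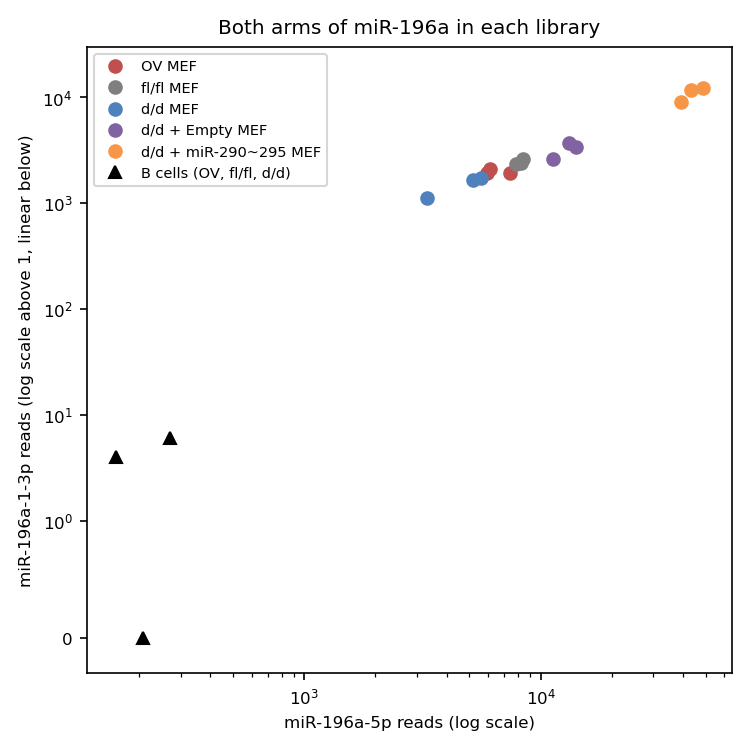
Recovered reads of miR-196a-1-3p against those of miR-196a-5p in each library (log axes; the vertical axis is linear below 1). The 15 MEF libraries follow 1 band, while the 3 B-cell libraries have 160 to 271 reads of the 5′ arm and 0 to 6 of the 3′ arm.

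miR-10a-3p amounted to 0.104% to 0.174% of the reads of both Mir10a arms in MEF, and the groups overlapped in the ratio of the arms in all 4 MEF comparisons, with the same limit on the exact test. miR-615-5p, the minor arm of Mir615, amounted to 1.46% ± 0.060 of miR-615-3p in fl/fl, 1.99% ± 0.024 in OV and 1.73% ± 0.234 in d/d (SD, n = 3). OV lay above fl/fl in every library (1.36-fold in the ratio, exact permutation p = 0.1, adjusted p = 0.2). This ratio was also added after seeing the data, and how often ratios of other arms were apart was not computed. By itself miR-615-5p did not pass the main test in any of the 4 comparisons, with limma adjusted p-values of 0.0949 to 0.732. It did pass in some of the alternatives for each comparison except d/d against fl/fl.

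In B cells each state has 1 library, so differences there have no replicate check and no test. Intervals below are 95% Wilson intervals of a share and cover counting error only. Past a 2-fold difference in d/d against fl/fl were 2 members, miR-10b-5p and miR-196b-5p, both higher, in a comparison in which 34.2% of 476 miRNAs were past 2-fold, 16.2% higher and 18.1% lower. In OV against fl/fl none of the 6 members over the minimum was past 2-fold, where 12.6% of all were, 6.3% higher and 6.3% lower.

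miR-10b-5p stood at 1200 normalized counts in the d/d B-cell library, against 446 (fl/fl) and 517 (OV), from 1511, 473 and 386 reads. The d/d library was 2.69-fold above fl/fl, and OV was close to fl/fl. miR-196b-5p stood at 100.04, 16.0 and 10.7, from 126, 17 and 8 reads. That is 5.93-fold higher in d/d than in fl/fl, on few reads. miR-10b-3p had 12 reads in the d/d library, against 1 (fl/fl) and 2 (OV).

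miR-10a-5p stood at 108502 normalized counts in the d/d B-cell library, against 206856 (fl/fl) and 210760 (OV). The d/d library was 1.91-fold lower, just inside the 2-fold line, and in shares of all reads the log2 difference was −0.68 in place of −0.93. miR-10a-3p (440, 706 and 671) and miR-196a-5p (164, 255 and 214) were also lower in the d/d library than in the others, by 1.60-fold and 1.55-fold against fl/fl. miR-615-3p stood at 43.7, 32.1 and 42.9, from 55, 34 and 32 reads. Its shares of 5.20 (3.997 to 6.77), 3.20 (2.29 to 4.48) and 3.14 (2.22 to 4.43) RPM overlapped in their intervals, whereas that of miR-196b-5p in d/d, 11.9 (10.01 to 14.2), lay above those of fl/fl, 1.60 (1.00 to 2.57), and OV, 0.784 (0.397 to 1.55).

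Within libraries, miR-10b-5p was 1.11% of miR-10a-5p in the d/d library, against 0.216% (fl/fl) and 0.245% (OV). miR-196b-5p was 60.9% of miR-196a-5p in the d/d library, against 6.27% (fl/fl) and 5% (OV). In each pair the d/d library was the highest of the 3, as were the d/d libraries among the first 9 MEF libraries. The fibroblast markers summed to 1018 RPM in the d/d B-cell library, against 233 (fl/fl) and 155 (OV). In the same order, the muscle (21.9, 5.56 and 2.35), epithelial (1465, 1184 and 692) and blood (18024, 14679 and 10383) sums were also highest in d/d. The neural (135, 1661 and 877) and endothelial (336, 417 and 538) sums were lowest there, and the liver sum (54.0, 49.4 and 58.0) lay between. The part of these gaps in the higher miR-10b-5p and miR-196b-5p was not tested.

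The share of miR-196a-1-3p beside miR-196a-5p differed between the cell types. miR-196a-5p comes from a pair of loci and this 3′ arm from the Hoxb locus only. A difference in the use of arms therefore cannot be told apart here from a difference in the use of loci. miR-196a-1-3p made up 18.8% to 25.4% of the reads of both arms in MEF, against 6 of 277 in fl/fl B cells and 4 of 164 in OV. These are 2.17% (0.996% to 4.64%) and 2.44% (0.952% to 6.10%). In d/d B cells it had 0 reads beside 207 of miR-196a-5p, for which the Wilson interval reaches 1.82% and the limit of 3 reads that a count of 0 allows is 1.45%. For Mir10a, whose arms come from a single locus, the order was the reverse, since miR-10a-3p was 0.317% to 0.404% of both arms in B cells and 0.104% to 0.174% in MEF.

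The miR-99 and miR-100 miRNAs are old relatives of miR-10 that lie outside the Hox clusters and whose seed differs, as the sequences show; miR-125a and miR-125b are made beside them. Capitals again mark bases 2 to 8 (RefSeq, GRCm38.p6).
miR-99a-5p: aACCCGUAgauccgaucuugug
miR-99b-5p: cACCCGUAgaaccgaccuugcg
miR-100-5p: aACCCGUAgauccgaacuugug

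Of these 5 relatives none was called higher in any MEF comparison of the main test. Short of the threshold, miR-125a-5p (log2 0.61, limma adjusted p = 0.0547) and miR-99b-5p (log2 0.41, limma adjusted p = 0.0764) were higher with miR-290~295, in overlapping groups. miR-125a-5p was also higher in OV than in d/d (log2 0.28, limma adjusted p = 0.0990). On the spike-in scale miR-100-5p, miR-125a-5p and miR-125b-5p were higher in OV than in d/d, past the threshold (log2 0.64, 0.85 and 0.48). So was miR-125a-5p after median re-centring (log2 0.44). In that spike-in comparison the median of all miRNAs was 0.60, and 333 of 665 were called higher. On the spike-in scale all 5 were lower in d/d than in fl/fl, past the threshold, and miR-100-5p was also lower with miR-290~295 (log2 −0.54). The medians of all miRNAs there were −0.39, with 283 of 665 called lower, and −0.46, with 331 of 846 called lower. In d/d against fl/fl 2 fell, miR-125a-5p (log2 −0.64, limma adjusted p = 0.00185) and miR-99a-5p (log2 −0.46, limma adjusted p = 0.00967). In each of the other comparisons 1 fell, miR-99a-5p, with log2 differences of −1.26 in OV against fl/fl, −0.80 in OV against d/d and −0.47 with miR-290~295. On the spike-in scale the OV and d/d ranges of miR-99a-5p overlapped (7312 to 11110 and 10514 to 11171 normalized counts). The median of the 5 in d/d against fl/fl was −0.19, beside 0.02 for all miRNAs. In B cells miR-100-5p was 15.9-fold lower in d/d than in fl/fl, while miR-99b-5p and miR-125a-5p were 5.89-fold and 6.403-fold higher.

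The miRNAs other than the 7 members whose levels ran most like each member were found by Pearson's r of log2(normalized count + 1), as a description, since the libraries share groups. Over the 9 libraries of the first set, with 656 candidates, miR-196a-5p was most like miR-218-5p (r = 0.99) and miR-7213-5p (0.98). miR-10b-5p was most like miR-679-5p (0.98) and miR-1188-5p (0.98), and miR-10a-5p most like miR-182-5p (0.97) and miR-1247-3p (0.96). miR-10a-3p ran most like miR-96-5p (0.96) and let-7c-1-3p (0.96), and miR-196b-5p most like miR-467e-5p (0.94) and miR-467c-5p (0.94). The closest to miR-615-3p, which varied least, were miR-1247-3p (0.87) and miR-449c-5p (0.85).

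Over the 6 libraries of the second set, with 834 candidates, the miRNAs most like both miR-196 forms included members of the introduced cluster. miR-196a-5p was most like miR-291a-3p (0.997) and miR-6540-5p (0.996), and miR-196b-5p most like miR-295-3p (0.998) and miR-291a-3p (0.996). The 6 libraries are 3 of each group, so they are not 6 independent points. miR-10a-5p was most like miR-219a-1-3p (0.99) and miR-187-3p (0.97), and miR-10a-3p most like miR-32-3p (0.98) and miR-219c-5p (0.98). miR-615-3p was most like miR-674-3p (0.99) and miR-1941-5p (0.98), and miR-10b-5p most like miR-6932-5p (0.93) and miR-7651-5p (0.86). The means of miR-6932-5p and miR-7651-5p, 16.6 and 22.3 normalized counts, were near the minimum of 10.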

How the data were processed

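Small RNAs of 18 libraries were analysed. Per the labels' protocols, spike-ins were added, small RNAs were gel-purified from total RNA and libraries were made with a NEBNext small RNA kit. The deposited values are signals: reads counted for each mature miRNA, which the authors scaled by a size factor for each library. The submitters' processing notes name DESeq2. Aligner, counting tool, annotation, genome build and filter: not given in the sources used here. All values came out as whole reads (100% within 0.0001). Each MEF set has a deposited table without spike-in scaling (used here) and one with it; the 33 deposited columns of rlog values were not used. OV and fl/fl MEF columns could be matched to their group, not to a replicate number. 1204, 1265 and 756 miRNAs are listed, and 662, 840 and 476 had a mean of at least 10.

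The test was limma 3.58.1 (in R 4.3.3), fitted to log2(normalized count + 1) with a trend of the variance, and with Benjamini-Hochberg adjustment over all miRNAs kept. The 9 libraries of the first set shared 1 estimate of the spread. Alternatives were pseudocounts of 0.5 and 5, no minimum or one of 100, the spike-in table, median re-centring, edgeR 4.0.16 and DESeq2 1.42.0 on recovered reads, fits on 6 libraries, a replicate block and leaving out each library. The code was tested on simulated data. Ratios used two-sided exact permutation tests. Reads are not independent molecules, so intervals cover counting error only. Replicates were not duplicate deposits: their reads differed by 63.5 to 3546 times sampling noise (chi-square per degree of freedom, 15 pairs). The genes named are all 7 members, the other arms of their precursors, the miR-99, miR-100 and miR-125 relatives, and the 2 most similar miRNAs per member; members and lists were chosen with earlier results of these data known.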

Additional observations from a re-analysis of the deposited data

Results flagged for a closer look

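In 4 instances every MEF library of a group lay on one side of the control libraries while the B-cell value had the opposite sign, on the tables' own scaling. Such an instance could arise only where the MEF groups did not overlap. That held for 5 of 6 members in OV against fl/fl and for 4 of 6 in d/d against fl/fl. The share of such instances over all miRNAs was not computed, so nothing particular to the members is read from them. Only 2 of the 4 MEF differences passed the test. Each B-cell state has 1 library, so the difference between the cell types was not tested. In OV against fl/fl, miR-10a-5p was lower in all 3 OV MEF libraries (log2 −0.48) and at 0.027 in B cells, which is close to level, and miR-10b-5p was lower in all 3 (log2 −0.60) and at 0.21 in B cells. As shares of all reads, both of these B-cell values turn negative, at −0.42 and −0.23, in libraries where miR-17~92 itself takes very different shares. miR-196b-5p was higher in all 3 OV MEF libraries (log2 0.32, limma adjusted p = 0.0814) and at −0.54 in B cells, on 8 and 17 reads. In d/d against fl/fl, miR-10a-3p was higher in all 3 d/d MEF libraries (log2 0.15, limma adjusted p = 0.392) and at −0.68 in B cells, and its MEF value turns to −0.28 on the spike-in scale and −0.13 after median re-centring.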

How the results depend on the processing

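The number of miRNAs called in OV against fl/fl MEF was 207, with 124 to 236 when 1 library was left out (124 without the fl/fl library 5). The number of members called there was 4, with 1 on the spike-in scale and 2 to 4 with 1 library left out. With miR-290~295 it was 5, with 3 on the spike-in scale, 2 after median re-centring and 2 to 4 with 1 library left out. In d/d against fl/fl and OV against d/d, 3 and 4 members were called in each run that left out a library. Beside the reversals that follow, no member's MEF difference changed direction in the alternatives run; the cause of these changes was not tested.

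Reversals on the log2 scale came mostly from scaling. On the spike-in scale, miR-615-3p in OV against fl/fl was 0.014. In d/d against fl/fl the spike-in and re-centred values were −0.37 and −0.22 for miR-10a-5p, −0.28 and −0.13 for miR-10a-3p, −0.41 and −0.27 for miR-615-3p and −0.17 and −0.026 for miR-615-5p. miR-615-3p was −0.0077 there without fl/fl library 3 or d/d library 1 (leave-one-out range −0.0077 to 0.050). In OV against d/d the spike-in values were 0.023 for miR-10a-5p, 0.40 for miR-196b-5p and 0.43 for miR-615-3p (0.014 re-centred), and miR-615-5p was −0.013 without d/d library 1. With miR-290~295 they were −0.068 for miR-10a-5p, −0.011 for miR-10a-3p and −0.12 for miR-615-5p, and miR-10b-5p was 0.012 without Empty library 2 and 0.028 without miR-290~295 library 2.

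Ratios of arms that hardly differed between groups changed sign when 1 library was left out: for miR-10a-5p to miR-10a-3p −0.10 in OV against fl/fl and −0.011 in OV against d/d without OV library 2 (leave-one-out ranges −0.10 to 0.27 and −0.011 to 0.36), and 0.060 and 0.036 with miR-290~295 without its library 2 or Empty library 1 (range −0.14 to 0.060). For miR-196a-5p to miR-196a-1-3p, a ratio added after seeing the data, they were 0.0033 and 0.032 in OV against fl/fl without OV library 2 or 4 (range −0.16 to 0.032), −0.056 in OV against d/d without OV library 1 (range −0.056 to 0.14), and 0.035, 0.0037 and 0.029 with miR-290~295 without its library 1 or Empty library 2 or 3 (range −0.10 to 0.035). The ratio of miR-10b-5p to miR-10b-3p, whose 3′ arm is near 0 reads, is set by the pseudocount: with 5 it was 0.50 in d/d against fl/fl (−0.86 with 1) and −1.09 in OV against d/d (0.26 with 1). All ratios of miR-10a-5p to miR-10b-5p and of miR-196a-5p to miR-196b-5p kept their direction.

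In the miR-290~295 set, deviations of same-numbered libraries from their group means had r = 0.28, 0.01 and −0.26 over 840 miRNAs. Differently numbered libraries had r from −0.38 to 0.39. Deviations from a mean of 3 libraries are tied to each other, so these values neither show nor exclude a pairing by number. With the replicate block 298 miRNAs and 4 members were called, and miR-10a-3p had a limma adjusted p of 0.0753. No paired analysis was possible in the first set because OV and fl/fl columns carry no replicate number of the labels. Depth limits miR-10b-3p in MEF, and miR-196b-5p and miR-615-3p in B cells.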
